A study of Homo sapiens with 6 samples.

Results

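The genes described here drive entry into S phase and copy the genome. They are 43 symbols in 6 roles: cyclins, CDK2 and E2F factors (6 genes), origin licensing (4), the replicative helicase (12), polymerases and fork enzymes (15), nucleotide supply (4) and chromatin assembly (2). Each was found by its symbol in a count table of 18544 genes, and all 43 passed the filter on low counts that left 18482 genes for testing. The cells were HMEC-1, a human dermal microvascular endothelial line immortalised with the large T antigen of SV40, kept in MCDB131 medium at 5.5 mM glucose. All cultures carried a lentivirus with an shRNA: Set7KD cultures (n = 3) a hairpin that targets Set7, the protein of the gene SETD7, and NTC cultures (n = 3) a non-targeting hairpin. The labels name 1 construct per group, so an effect of the hairpin on other transcripts and an effect of losing Set7 cannot be told apart. Poly-A RNA was sequenced from each culture, and the comparison asks which transcripts differ once Set7 is reduced.

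In G1 phase, D-type cyclins with CDK4 or CDK6, and then cyclin E with CDK2, phosphorylate the RB family of repressors and free E2F factors, which switch on the genes of DNA replication. Origins are licensed when ORC, CDC6 and CDT1 load the MCM ring, and they fire when CDC45 and the GINS complex join that ring to make an active helicase. Polymerases, the sliding clamp PCNA and its loader RFC then copy both strands, ribonucleotide reductase and thymidylate synthase supply deoxynucleotides, and CAF-1 places histones on the new DNA. Large T antigen, which these cells carry, binds and inactivates RB proteins and p53. SETD7 is a lysine methyltransferase of histone H3 and of other proteins, and E2F1 and RB are among its reported substrates.

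The libraries held 16385878 to 16953331 gene counts each, and levels are given as CPM, the count as a share of the library's TMM-scaled total, in which 1 count equals 0.0585 to 0.0618 CPM. SETD7 (ENSG00000145391.7) stood at 180, 178 and 176 CPM in NTC and at 27.8, 43.8 and 26.7 CPM in Set7KD. The Set7KD libraries thus held 15 to 24.6% of the NTC mean, with no overlap between the groups (log2 fold change -2.44 ± 0.21, standard error; edgeR adjusted p = 0.000927). In NTC replicate 3, 30 genes of G2 and mitosis summed to 7704 CPM, against 6974 and 6706 CPM in NTC replicates 1 and 2 and 7170 to 7380 CPM in Set7KD. Of these 30 genes, 28 (93.3%) had their highest NTC value in replicate 3, beside 34% of all genes tested. The endothelial marker genes summed to 449 to 570 CPM in NTC and 357 to 394 CPM in Set7KD over the 8 of 10 markers tested, with 2 higher and 2 lower, and ERG lower too with the replicate block (adjusted p = 0.000178). Of the 8, CDH5, TIE1, ERG and TEK each averaged over 45 CPM in NTC, and PECAM1 and CLDN5 were not analysed here. Fibroblast markers summed to 64.6 to 80.6 CPM in NTC and 142 to 152 CPM in Set7KD (4 of 6 tested, 2 higher). Smooth muscle markers summed to 113 to 138 and 144 to 185 CPM (5 of 6 tested, 2 higher, and SMTN too with the block, adjusted p = 3.85e-06), leukocyte markers to 36.1 to 38.7 and 21.5 to 28.2 CPM (2 of 6 tested, 2 lower) and epithelial markers to 176 to 211 and 187 to 202 CPM (2 of 6 tested, 1 lower). The defining markers PTPRC, CD3E, KRT5, KRT14, DES and DCN were not analysed here. The fibroblast and smooth muscle sums rest largely on COL3A1, a fibrillar collagen (12.8 ± 0.82 CPM in NTC and 85.2 ± 8.91 in Set7KD, SD, n = 3), THY1 and SMTN. Their part in the results below was not tested, and in bulk RNA fewer cells in a phase or of a type and less RNA per cell cannot be told apart.

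The replication genes did not move as a block. By edgeR, 12 of the 43 were higher in Set7KD, 11 were lower and 20 were not called, where a gene was called at an adjusted p under 0.05. Among all genes tested 36.2% were called, 17.6% higher and 18.6% lower, and among the replication genes 53.5%. That share rises with expression level: of the 8910 genes with at least 20 CPM in NTC, 47.5% were called, and 42 of the 43 replication genes lie above that level, of which 22 were called (52.4%). The median log2 fold change of the 43 was 0.03, beside -0.01 for all genes tested. Sizes were modest: the absolute log2 fold change had a median of 0.19 here and 0.21 over all genes. Of the 23 called, 21 differed by less than 0.5 on the log2 scale, and only CCNE1 reached a fold of 2. In 25 of the 43 genes (58.1%) every library of 1 group lay above every library of the other, beside 47.4% of all genes.

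**Figure D1:**
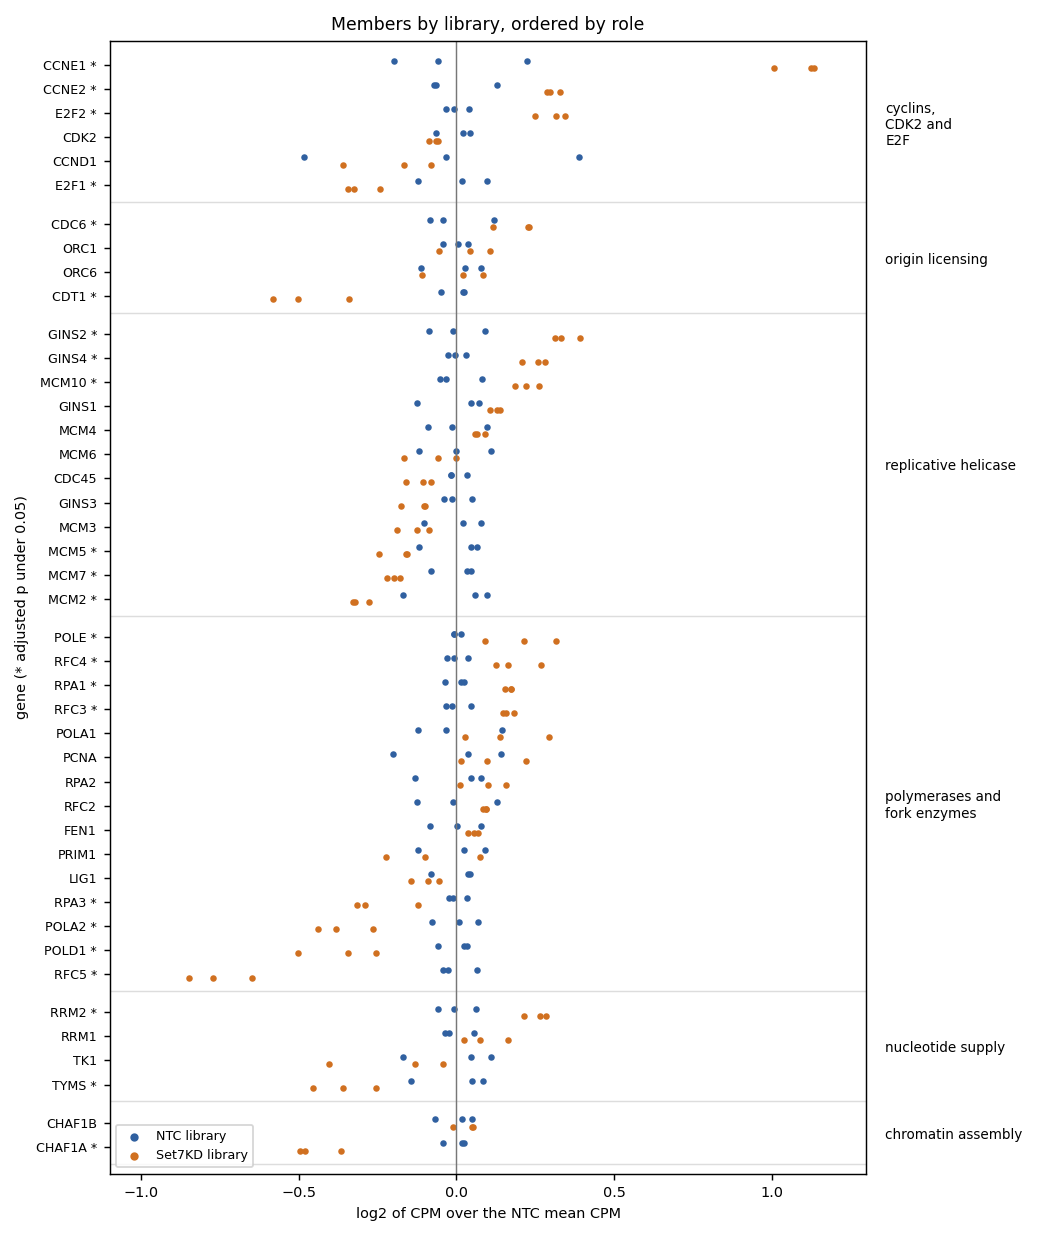
Every member in every library, as the log2 of its CPM over the NTC mean (x axis), grouped by role and ordered by fold change, with NTC libraries in blue and Set7KD libraries in orange and an asterisk for an edgeR adjusted p under 0.05. CCNE1 lies farthest to the right and RFC5 farthest to the left, and most roles hold genes on both sides of 0.

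The sequence upstream of these genes was not used to choose them. E2F factors bind sites spelled TTTCCCGC, TTTGGCGC, TTTCGCGC or TTTGCCGC, and these 4 words were searched on both strands of RefSeq promoters (GRCh38.p14, 250 bases before to 50 after a transcript start). A promoter was found for 35 of the 43 genes, and 18 of the 35 (51.4%) held at least 1 match, beside 648 of 9893 tested genes with a promoter (6.55%). The matches were found among genes that rose (5 of 10), that fell (6 of 9) and that were not called (7 of 16). By role they were found in 7 of 9 helicase genes, 6 of 13 polymerase and fork genes, 2 of 4 licensing genes, 2 of 3 cyclin and E2F genes, 1 of 4 nucleotide supply genes and 0 of 2 chromatin assembly genes. Matches stood in 24 of 85 other genes of the pathway (28.2%) and in 3 of 25 G2 and mitosis genes (12%). A match is a description of letters, not a measured site, and a window without these letters says nothing about the factor. Promoters of CCND1, CCNE2, CDK2, MCM4, MCM5, GINS4, RPA2 and RPA3 were not used here.

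The last 70 bases before the start are shown for 4 genes that fell and 4 that rose, chosen among genes with a match there. Capitals mark the matches, and their bearing on the direction of change was not tested.
E2F1 (fell; chr20:33686386-33686455, minus strand): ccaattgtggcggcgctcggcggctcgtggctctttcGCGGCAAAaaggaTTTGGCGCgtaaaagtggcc
CDT1 (fell; chr16:88803719-88803788, plus strand): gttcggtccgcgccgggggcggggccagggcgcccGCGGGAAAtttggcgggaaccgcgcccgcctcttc
POLA2 (fell; chr11:65261892-65261961, plus strand): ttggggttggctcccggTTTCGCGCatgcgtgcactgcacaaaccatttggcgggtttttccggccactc
TYMS (fell; chr18:657583-657652, plus strand): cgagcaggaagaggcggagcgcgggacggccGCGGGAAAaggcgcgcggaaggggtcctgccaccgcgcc
E2F2 (rose; chr1:23531234-23531303, minus strand): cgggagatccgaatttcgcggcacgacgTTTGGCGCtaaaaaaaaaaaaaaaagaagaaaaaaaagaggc
GINS2 (rose; chr16:85688955-85689024, minus strand): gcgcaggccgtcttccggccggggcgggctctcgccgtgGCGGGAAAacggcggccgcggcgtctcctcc
RFC3 (rose; chr13:33818079-33818148, plus strand): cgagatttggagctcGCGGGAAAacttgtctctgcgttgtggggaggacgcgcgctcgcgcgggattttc
POLE (rose; chr12:132687343-132687412, minus strand): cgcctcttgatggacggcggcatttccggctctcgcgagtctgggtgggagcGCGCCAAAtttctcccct
GCGGGAAA, GCGCCAAA and GCGGCAAA are the same words read on the other strand. In CDT1, GINS2, RFC3 and TYMS the identical 8 bases GCGGGAAA begin 35, 31, 55 and 39 bases before the start, although CDT1 and TYMS fell and GINS2 and RFC3 rose. Matches on the 2 strands can overlap, as in MCM2, where TTTCGCGC and GCGCGAAA share bases just after the start.

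Among cyclins and E2F factors 3 genes rose and 1 fell. CCNE1, which encodes cyclin E1, had 5.44, 4.94 and 6.61 CPM in NTC and 12.3, 11.4 and 12.4 CPM in Set7KD. Every Set7KD library was well above every NTC library, and the rise was the largest of the 43 genes (log2 fold change 1.09 ± 0.13, standard error; edgeR adjusted p = 1.1e-05). CCNE1 was also the lowest of the 43 by level, with 2.22 CPM per kilobase of exon in NTC. CCNE2, for cyclin E2, rose from 50.6, 57.9 and 50.4 CPM to 64.7, 66.5 and 65.1 CPM (0.31 ± 0.07, adjusted p = 0.00197). The Set7KD values lay within 2 CPM of each other and above all NTC values, but 37% of the exon length of CCNE2 overlaps the antisense gene INTS8, which also rose (0.17, adjusted p = 0.0257). The sources used here do not say whether counting was by strand, and without strand the reads of such antisense pairs cannot be told apart.

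The E2F activators moved in opposite directions. E2F1 fell from 79.8, 75.5 and 68.6 CPM in NTC to 63.2, 58.8 and 59.6 CPM in Set7KD (log2 fold change -0.30 ± 0.07, edgeR adjusted p = 0.00201). E2F2 rose from 22.2, 23.4 and 22.6 CPM to 28.3, 27.1 and 28.9 CPM (0.30 ± 0.08, adjusted p = 0.00536). Neither gene overlapped between groups. The log2 ratio of E2F1 to E2F2 within a library dropped from 1.6 to 1.84 in NTC to 1.04 to 1.16 in Set7KD. Partners for this ratio and those below were chosen after their values were seen. CDK2, the kinase partner of cyclin E, had 119 to 128 CPM in NTC and 117 to 119 CPM in Set7KD and was not called (adjusted p = 0.319). CCND1, for cyclin D1, varied most between control libraries, with 59.4, 43.5 and 79.6 CPM in NTC and 54.1, 47.4 and 57.4 CPM in Set7KD. Its groups overlapped and it was not called (adjusted p = 0.597), although without NTC replicate 2 the adjusted p was 0.0473.

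Among licensing factors 1 gene rose and 1 fell. CDT1, which brings the MCM ring to origins, had 60.9, 58.0 and 61.1 CPM in NTC and 42.4, 40.1 and 47.4 CPM in Set7KD. The groups were far apart (log2 fold change -0.47 ± 0.07, edgeR adjusted p = 9.08e-05). CDC6, the ATPase that acts with it, had 122, 136 and 118 CPM in NTC and 136, 147 and 147 CPM in Set7KD (0.19 ± 0.06, adjusted p = 0.0238). NTC replicate 2 lies at the level of the lowest Set7KD library, and the adjusted p of CDC6 was 0.107, 0.0877 and 0.0629 when NTC replicate 1, NTC replicate 3 and Set7KD replicate 3 were left out in turn. ORC1 and ORC6, subunits of the origin recognition complex, differed little: ORC1 had 42.5 to 45.0 CPM in NTC and 42.2 to 47.2 CPM in Set7KD. ORC6 had 41.6 to 47.5 and 41.7 to 47.7 CPM, and neither was called (adjusted p = 0.727 and 0.995).

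Of the 12 helicase genes 3 rose, 3 fell and 6 were not called. Within the MCM ring MCM2, MCM5 and MCM7 fell and MCM3, MCM4 and MCM6 were not called. MCM2 went from 279, 287 and 239 CPM to 222, 215 and 214 CPM (log2 fold change -0.31 ± 0.06, edgeR adjusted p = 0.00157). MCM7 went from 423, 420 and 388 CPM to 362, 352 and 357 CPM (-0.20 ± 0.05, adjusted p = 0.00749), and MCM5 from 216, 214 and 190 CPM to 185, 174 and 186 CPM (-0.19 ± 0.06, adjusted p = 0.0205). In all 3 the lowest NTC library was replicate 3, and it was still above every Set7KD library. The call of MCM7 was lost without NTC replicate 1 (0.055). For MCM5 the adjusted p was 0.115 and 0.0698 on leaving out NTC replicate 1 or 2, and 0.0535 and 0.0531 on leaving out Set7KD replicate 1 or 2. The log2 fold changes of MCM3, MCM4 and MCM6 were -0.13, 0.07 and -0.07. MCM3 was called with the replicate number as a block (adjusted p = 0.0161) and without NTC replicate 3 (0.0213). The log2 ratio of MCM2 to MCM4 lay between -0.61 and -0.47 in NTC and between -0.95 and -0.88 in Set7KD.

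Of the 6 factors that act on the ring 3 rose and 3 were not called, and a difference between them and the ring genes was not tested. GINS2, a subunit of the GINS complex, rose from 45.7, 51.7 and 48.2 CPM to 63.7, 61.1 and 60.3 CPM (log2 fold change 0.35 ± 0.06, edgeR adjusted p = 0.000603). GINS4, another subunit, rose from 63.9, 64.8 and 66.3 CPM to 75.0, 77.8 and 78.9 CPM (0.25 ± 0.06, adjusted p = 0.00249). The groups were apart for both, but 21.2% of the exon length of GINS4 overlaps RP11-360L9.7 on the other strand, which also rose (0.31, adjusted p = 0.00537). GINS1 (0.12, adjusted p = 0.123) and GINS3 (-0.13, adjusted p = 0.159) were not called. MCM10, which helps the helicase start, rose from 67.1, 72.8 and 66.3 CPM to 80.2, 78.2 and 82.4 CPM (0.22 ± 0.06, adjusted p = 0.00723). CDC45 had 74.7 to 77.4 CPM in NTC and 67.7 to 71.5 CPM in Set7KD, and GINS3 35.8 to 38.1 and 32.6 to 34.4 CPM. Both lay lower in Set7KD with no overlap between groups, but CDC45 was not called either (adjusted p = 0.116). GINS1 lay higher in Set7KD, also with no overlap, at 75.2 to 86.3 CPM in NTC and 88.5 to 90.3 CPM in Set7KD.

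Among polymerases and fork enzymes 4 genes rose and 4 fell of 15. RFC5, a subunit of the clamp loader, had the largest fall of the 43 genes. It went from 71.6, 66.4 and 67.1 CPM in NTC to 38.0, 43.6 and 40.1 CPM in Set7KD (log2 fold change -0.75 ± 0.07, edgeR adjusted p = 8.09e-07). The other small subunits went up or were not called: RFC3 had 81.3 to 85.7 CPM in NTC and 92.0 to 94.2 CPM in Set7KD (0.16 ± 0.05, adjusted p = 0.0263). RFC4 had 71.6 to 75.1 and 79.8 to 88.1 CPM (0.19 ± 0.06, adjusted p = 0.0199), and RFC2 61.0 to 72.7 and 70.5 to 71.0 CPM (adjusted p = 0.308). Per length of exon RFC5 was the lowest of these 4 subunits in NTC already, at 21 CPM per kilobase beside 30.1 for RFC2, 28.9 for RFC3 and 24.4 for RFC4, and it stood at 12.5 in Set7KD. The log2 ratio of its CPM to the mean of theirs, not divided by length, was -0.05, -0.21 and -0.08 in NTC and -1.08, -0.94 and -1.02 in Set7KD. A ratio within a library does not depend on how libraries are scaled. The neighbour WSB2 shares 5.72% of the exon length of RFC5 on the other strand, and it rose (0.43).

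The polymerase genes had calls in both directions. POLD1, the catalytic subunit of polymerase delta of the lagging strand, fell from 91.8, 92.5 and 86.7 CPM to 75.6, 63.8 and 71.1 CPM (log2 fold change -0.36 ± 0.07, edgeR adjusted p = 0.000488). POLE, that of polymerase epsilon of the leading strand, rose from 238, 241 and 238 CPM to 297, 255 and 277 CPM (0.21 ± 0.06, adjusted p = 0.0103), a call lost without Set7KD replicate 1 (0.0804). Their log2 ratio went from -1.46 to -1.37 in NTC to -2 to -1.96 in Set7KD. POLA2, the regulatory subunit of polymerase alpha, fell from 77.1, 69.7 and 74.0 CPM to 54.3, 56.5 and 61.2 CPM (-0.36 ± 0.06, adjusted p = 0.000474). Its catalytic partner POLA1 had 67.5 to 81.2 CPM in NTC and 74.8 to 90.0 CPM in Set7KD (adjusted p = 0.139). POLA1 was called higher with the replicate block (0.0146), without NTC replicate 2 (0.0302) and without Set7KD replicate 3 (0.0453). The primase gene PRIM1 was not called (adjusted p = 0.51).

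RPA, which coats single-stranded DNA, had unequal subunits as well. RPA1 rose from 446, 449 and 431 CPM to 492, 498 and 497 CPM (log2 fold change 0.17 ± 0.05, edgeR adjusted p = 0.0153), while RPA3 fell from 28.4, 29.3 and 28.1 CPM to 23.0, 26.3 and 23.4 CPM (-0.24 ± 0.08, adjusted p = 0.0267). Both calls rest on few libraries. RPA1 passed 0.05 once NTC replicate 1 (0.0569) or Set7KD replicate 1 (0.0504) was left out. RPA3 did so for NTC replicate 1 (0.0699), NTC replicate 2 (0.0737), Set7KD replicate 1 (0.129) and Set7KD replicate 3 (0.0995). The same was seen for RFC3 when NTC replicate 1 (0.0923), NTC replicate 3 (0.0659) and Set7KD replicate 1 (0.0604) were each dropped, and for RFC4 on dropping NTC replicate 3 (0.0528) or Set7KD replicate 2 (0.0615). RPA2, FEN1, which trims Okazaki fragments, and LIG1, which joins them, were not called, with adjusted p of 0.305, 0.477 and 0.186. PCNA, the sliding clamp, had the highest level per length of the 43 genes, 268 CPM per kilobase in NTC and 290 in Set7KD. It had 405, 436 and 343 CPM in NTC and 422, 460 and 399 CPM in Set7KD. The groups overlapped and PCNA was not called (adjusted p = 0.325), but was with the replicate block (0.039).

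**Figure D2:**
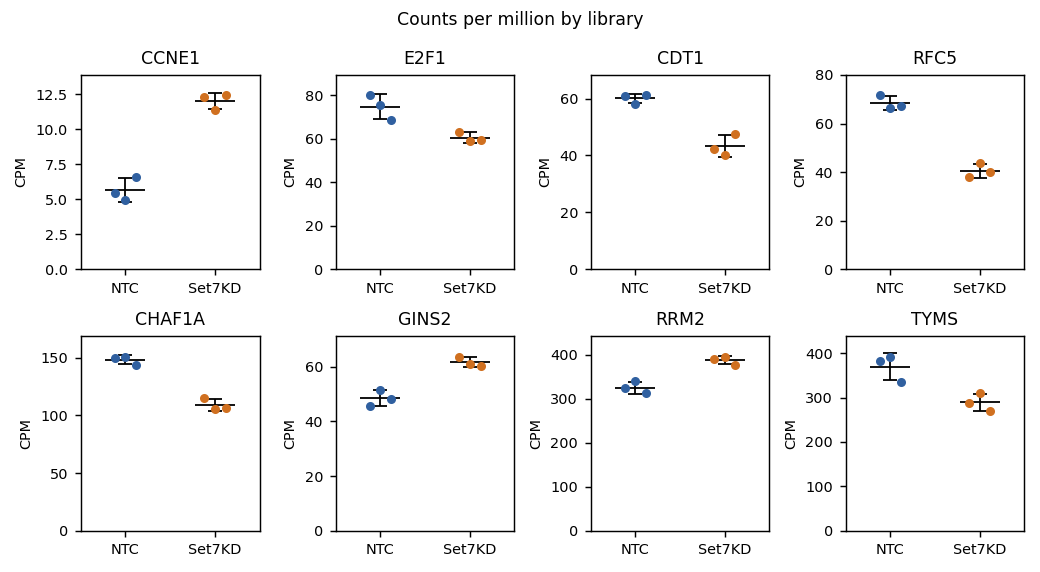
CPM (y axis, from 0) of 8 members by library in NTC (blue) and Set7KD (orange), with the mean and SD of the 3 libraries as bars. CCNE1, GINS2 and RRM2 are higher in each Set7KD library than in any NTC library, and E2F1, CDT1, RFC5, CHAF1A and TYMS are lower.

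**Figure D3:**
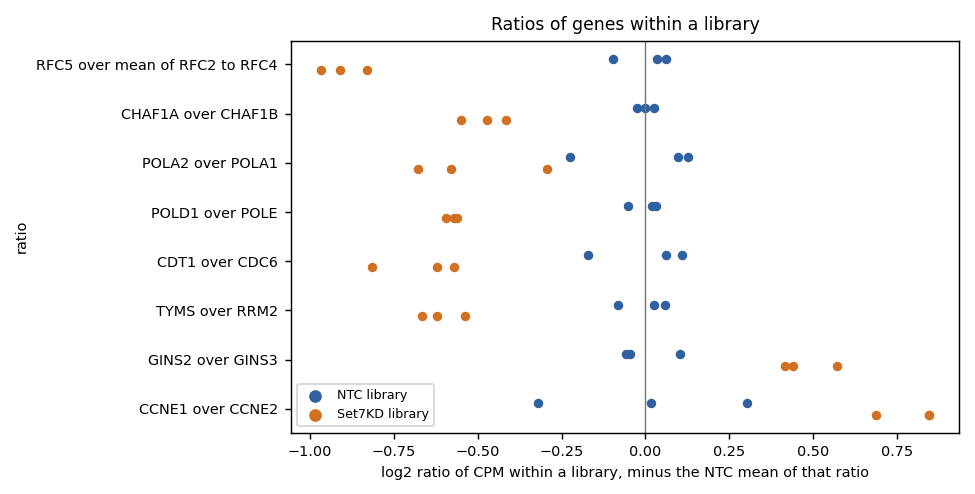
The log2 ratio of 2 genes' CPM within each library, minus the NTC mean of that ratio (x axis), for 8 pairs of partners. The pairs were chosen after their values were seen, so their separation is a description and was not tested. NTC libraries (blue) and Set7KD libraries (orange) do not overlap in any of the 8. Among the 8 drawn, the ratio of RFC5 to its partners moved farthest, by -0.90. Of 16 ratios computed, others moved farther, such as CCND2 over CCND1 by -1.52. CDT1 over GMNN, whose groups overlapped, was not drawn.

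Nucleotide supply gave 1 higher and 1 lower gene of 4. RRM2, the S phase subunit of ribonucleotide reductase, rose from 323, 339 and 312 CPM to 390, 395 and 377 CPM (log2 fold change 0.26 ± 0.05, edgeR adjusted p = 0.00136). Its large subunit gene RRM1 had 430 to 459 CPM in NTC and 449 to 494 CPM in Set7KD (adjusted p = 0.22). TYMS, thymidylate synthase, fell from 382, 392 and 335 CPM to 288, 309 and 270 CPM (-0.35 ± 0.07, adjusted p = 0.000837). The groups were apart for RRM2 and TYMS, and their log2 ratio (TYMS over RRM2) went from 0.1 to 0.24 in NTC to -0.48 to -0.35 in Set7KD. However, 39.2% of the exon length of TYMS overlaps ENOSF1 on the other strand, which fell too, from 147 ± 7.24 to 122 ± 9.82 CPM (SD, n = 3; -0.27, adjusted p = 0.00358). TK1, thymidine kinase of the salvage pathway, had 167, 144 and 175 CPM in NTC and 148, 122 and 157 CPM in Set7KD. In both groups replicate 2 was lowest, the groups overlapped and TK1 was not called (adjusted p = 0.195), but with the replicate block it was (0.00232), as it was without NTC replicate 2 (0.0403).

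CHAF1A and CHAF1B, the large and middle subunits of the histone chaperone CAF-1, separated. CHAF1A had 150, 151 and 144 CPM in NTC and 115, 105 and 106 CPM in Set7KD, with no overlap (log2 fold change -0.45 ± 0.05, edgeR adjusted p = 1.81e-05). CHAF1B had 55.6 to 60.3 CPM in NTC and 57.9 to 60.4 CPM in Set7KD (adjusted p = 0.73). Their log2 ratio was 1.35, 1.32 and 1.37 in NTC and 0.93, 0.8 and 0.88 in Set7KD. RBBP4, the histone-binding subunit of CAF-1 and not among the 43 genes, fell with CHAF1A, from 104 ± 5.98 to 64.2 ± 5.33 CPM (SD, n = 3; -0.69, adjusted p = 1.97e-06).

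For a rough comparison between genes, CPM was divided by exon length, the bases covered by all annotated exons of a gene. This is not the length of the transcripts present in these cells, which was not measured. The order below therefore depends in part on the divisor. PCNA (268 CPM per kilobase in NTC), TYMS (150), RRM1 (106), MCM7 (93.5) and MCM3 (90) led the 43, and CCNE1 (2.22), E2F2 (4.17), GINS3 (7.21), RPA3 (8.86) and ORC6 (10.4) were at the bottom. The ring genes MCM2 to MCM7 spanned 28.2 (MCM5) to 93.5 (MCM7) CPM per kilobase. The value of TYMS may include reads of ENOSF1, which overlaps it on the other strand.

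Beyond the 43 genes, 98 other genes of the pathway were matched of 100 written. They were listed by role, with earlier results of these data known. Of these 32 rose and 17 fell by edgeR, 50% of the list beside 36.2% of all genes, with a median log2 fold change of 0.05. Of the 88 with at least 20 CPM in NTC, 45 were called (51.1%), beside 47.5% of all genes above that level. The number that fell was 10 when NTC replicate 2, Set7KD replicate 1 or Set7KD replicate 3 was left out. In that order, 34, 29 and 29 then rose. Over all genes 3046, 2545 and 2776 were then called lower, beside 3440 with every library in. Among 16 genes of the RB, DP, E2F and MuvB complexes 7 rose and 2 fell. RBL2 (p130), the RB family member of resting cells, fell from 124 ± 0.86 to 74.5 ± 3.66 CPM (SD, n = 3, edgeR adjusted p = 1.86e-07). RBL1, of the same family, rose from 68.9 ± 3.51 to 81.2 ± 2.44 CPM (adjusted p = 0.00512). RB1 was not called (183 ± 6.38 and 174 ± 11.9 CPM, adjusted p = 0.339). E2F3, a further activator E2F, rose from 42.2 ± 1.72 to 58.4 ± 3.6 CPM (adjusted p = 7.17e-05), and TFDP1, the dimer partner of E2F factors, from 216 ± 6.66 to 260.3 ± 2.79 CPM (adjusted p = 0.000662). E2F4, E2F5, E2F6 and E2F7 were not called, with log2 fold changes of 0.03, 0.11, 0.05 and -0.01.

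Among the other G1 and S phase cyclins and kinases, CCND2 and CDK6 changed by more than a fold of 2. CCND2, for cyclin D2, fell from 18.9, 16.7 and 12.6 CPM in NTC to 4.9, 6.8 and 3.61 CPM in Set7KD (log2 fold change -1.65 ± 0.22, edgeR adjusted p = 0.000572). CDK6 rose from 48.8, 47.3 and 67.1 CPM to 113, 107 and 114 CPM (1.03 ± 0.13, adjusted p = 0.000871). The groups were apart for both, while CDK4 was not called (112 ± 10 and 111 ± 4 CPM, SD, n = 3). CDC25A, the phosphatase that activates CDK2, rose from 39 ± 1.98 to 51.8 ± 2.45 CPM (adjusted p = 0.000226). In this list 4 of 9 genes rose and 1 fell.

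CDK inhibitors moved both ways, with 2 of 6 higher and 1 lower. CDKN2C (p18) rose from 51.4 ± 2.24 to 67.5 ± 4.71 CPM (SD, n = 3; edgeR adjusted p = 0.000283) and CDKN1B (p27), which binds cyclin E with CDK2, from 62 ± 6.18 to 80.2 ± 2.17 CPM (adjusted p = 0.000676). CDKN1A (p21), a p53 target that also binds PCNA, had 975, 998 and 742 CPM in NTC and 698, 767 and 649 CPM in Set7KD. NTC replicate 3 was lower than Set7KD replicate 2, and CDKN1A was not called (adjusted p = 0.0514), but was with the replicate block (6.73e-05) and without NTC replicate 3 (9.34e-05). CDKN1C fell at about 1 CPM (adjusted p = 0.0334), which became 0.128, 0.0704 and 0.141 on leaving out NTC replicate 1, NTC replicate 2 and Set7KD replicate 3. CDKN2B and CDKN2D were not called, with log2 fold changes of 0.11 and -0.15; without NTC replicate 3 CDKN2B was called (0.015). Of 9 ubiquitin ligase genes 1 rose and 1 fell. With the replicate block 2 fell. SKP2, the subunit that marks p27 for destruction, fell from 60.8 ± 3.45 to 40.8 ± 2.69 CPM (adjusted p = 1.59e-05), and CUL1, its scaffold, rose from 95.2 ± 2.18 to 110 ± 3.93 CPM (adjusted p = 0.00662).

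**Figure D4:**
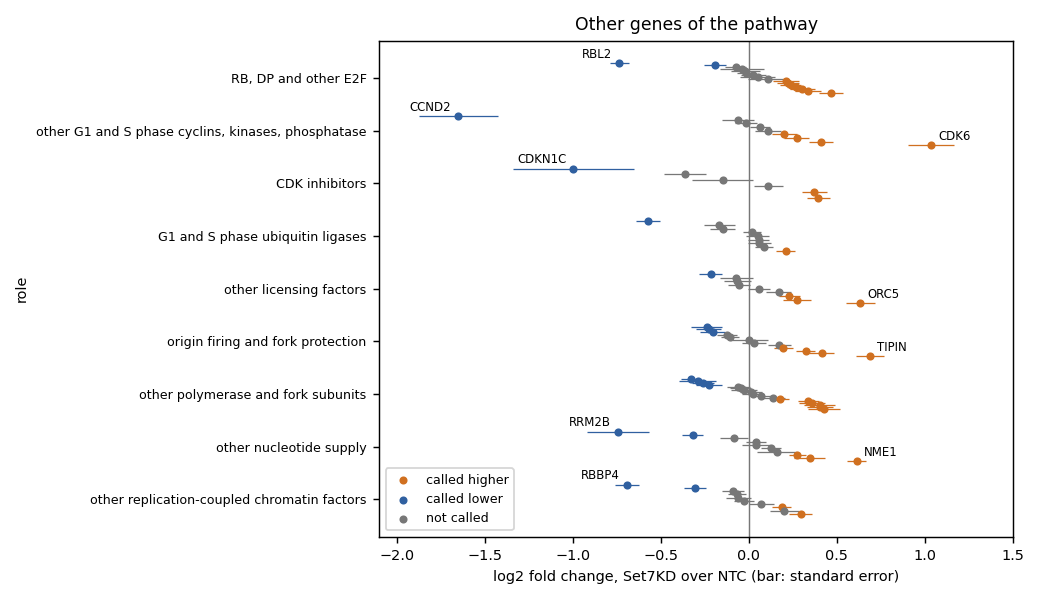
Log2 fold change of 98 other pathway genes by role (x axis, Set7KD over NTC, bars give the standard error), coloured by the edgeR call. CCND2 and CDK6 lie at -1.65 and 1.03, and every role holds called genes on both sides of 0.

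Outside the cell cycle switch, the remaining lists also held calls in both directions. Licensing factors gave 3 higher and 1 lower of 9, with ORC5 rising from 16.1 ± 0.35 to 25 ± 1.37 CPM (SD, n = 3; edgeR adjusted p = 3.64e-05) where ORC1 and ORC6 had not been called. Firing and fork protection factors gave 4 higher and 3 lower of 12, and 5 and 5 with the replicate block. TIPIN, of the fork protection complex, rose from 22.1 ± 1.81 to 35.6 ± 1.18 CPM (adjusted p = 1.04e-05), CLSPN, the checkpoint adaptor claspin, from 153 ± 4.31 to 191 ± 8.79 CPM (adjusted p = 0.000259) and DBF4, the activator of CDC7 kinase, from 27.6 ± 0.83 to 36.7 ± 1 CPM (adjusted p = 0.000279). Other polymerase and fork subunits gave 6 higher and 4 lower of 17. The 3 other subunits of polymerase epsilon rose with POLE: POLE2 by 0.43, POLE3 by 0.34 and POLE4 by 0.36 on the log2 scale (adjusted p = 0.00185, 0.000453 and 0.00135). The other subunits of polymerase delta did not all fall with POLD1. POLD2 rose (0.18, adjusted p = 0.0189), POLD3 was not called (-0.06) and POLD4 fell (-0.29, adjusted p = 0.043, and 0.0506 with the replicate block). The calls of POLD2 and POLD4 were lost without Set7KD replicate 1 (0.0619 and 0.142). In RNase H2, which removes ribonucleotides, RNASEH2A fell (-0.33, adjusted p = 0.000361), RNASEH2B rose (0.40, adjusted p = 0.000579) and RNASEH2C was not called (0.01). RNASEH2A and RNASEH2B thus moved in opposite directions, as RFC5 had against RFC3 and RFC4. In CAF-1, by contrast, CHAF1A and RBBP4 fell and CHAF1B was not called.

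In nucleotide supply beyond the 43 genes, 3 rose and 2 fell of 10. NME1, a nucleoside diphosphate kinase, rose from 90.1 ± 3.92 to 138 ± 0.61 CPM (SD, n = 3; edgeR adjusted p = 6.87e-07), CMPK1 rose by 0.28 on the log2 scale (adjusted p = 0.000506) and DCK, which salvages deoxycytidine, fell by 0.32 (adjusted p = 0.000752). RRM2B, the p53-induced partner of RRM1, fell from 92.1 ± 14.9 to 55 ± 9.74 CPM while RRM2 rose (adjusted p = 0.0235), which became 0.0689, 0.0793 and 0.0552 on leaving out NTC replicate 1, Set7KD replicate 1 and Set7KD replicate 3. Among chromatin factors 2 rose and 2 fell of 10: NASP, a histone H1 and H3 chaperone, fell with RBBP4 (-0.31, adjusted p = 0.00144), and SLBP, which binds histone mRNA, rose (0.29, adjusted p = 0.00208).

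The summed level of the 43 genes was 6388, 6553 and 6023 CPM in NTC and 6258, 6308 and 6176 CPM in Set7KD. The Set7KD libraries lay inside the NTC range, and NTC replicate 3 was lowest. In that library 29 of the 43 genes had their lowest NTC value, including 8 of 12 helicase genes and 12 of 15 polymerase and fork genes, beside 37.4% of all genes tested, while the G2 and mitosis genes were high there. The counts by edgeR followed the libraries used. Without NTC replicate 3 there were 9 higher and 12 lower (2992 and 3303 of all genes). Without NTC replicate 1 there were 9 and 8 (2423 and 2564 of all genes). With both replicate 1 libraries left out, the calls over all genes fell from 3250 higher and 3440 lower to 1414 and 1562. Of the 43 genes, only CCNE1 was then called higher and E2F1, CDT1, POLA2, POLD1, RFC5 and CHAF1A lower. These 7 calls also held in each of the other alternatives except the test against a fold of 1.2, in which CCNE1, CDT1, RFC5 and CHAF1A were the 4 still called.

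**Figure D5:**
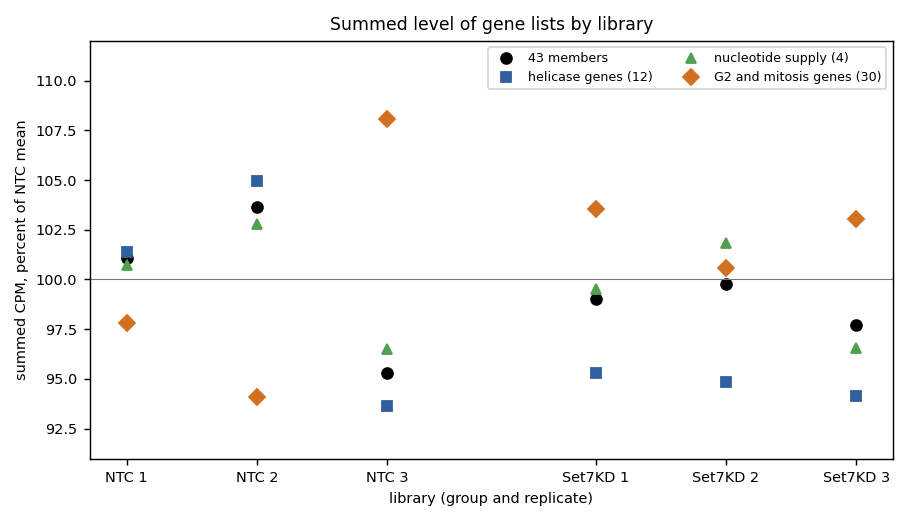
Summed CPM of 4 gene lists in each library, as a percentage of the NTC mean of that list (y axis, which does not start at 0). NTC replicate 3 is lowest in NTC for the sum of the 43 members, of the helicase genes and of the nucleotide supply genes, and highest for that of the G2 and mitosis genes.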

How the data were processed

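The authors deposited raw read counts per gene in 1 table for 6 libraries; per the submitters' processing notes, BWA, bedtools and hg19 were used, with no version. Group and replicate came from the sample titles. The series text calls the replicates biological; no label says that they were transduced separately, and the p-values reflect library-to-library spread only. The table's row for reads outside genes held 55.6 to 56.1% of counts and was left out.

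The main test was the quasi-likelihood test of edgeR 4.0.16 under R 4.3.3, after filterByExpr and TMM scaling, with robust dispersions and Benjamini-Hochberg adjustment over 18482 genes; limma 3.58.1 (voom) and DESeq2 1.42.0 were alternatives. The standard error is the absolute log2 fold change over the square root of F. CPM are TMM-scaled and carry counting error of 1 count at 0.0585 to 0.0618 CPM. Counts for this comparison were simulated for 18368 genes, with 50 changed at each fold. Of genes changed by folds of 1.3, 1.5, 2 and 4, 44, 76, 88 and 100% were recovered. Each pair of libraries within a group differed by more than counting error, at a chi-square of 2.98 to 9.85 per degree of freedom. Deviations from group means correlated at 0.3, 0.42 and 0.34 between same-numbered libraries (11151 genes) and at -0.36 to -0.04 otherwise. By the rule used (over 0.1 in every pair) the numbers pair the libraries; the pairing comes from the data, and no label explains a number. Blocked values are given where they change the call of a gene described or move a count by over 1.5 times.

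Members, lists and tests were chosen with earlier results of these data known. All members may be named; of other pathway genes, the called genes with the smallest p of each list (up to 3) and uncalled inhibitors, RB and E2F genes are named. RBL1, POLE2, POLE4, POLD2, POLD3, POLD4, RNASEH2C, RRM2B, CDK4 and the partners in ratios were chosen after their values were seen. So was the level of 20 CPM. Of 16 ratios computed 15 had groups apart, and CDT1 over GMNN overlapped. Exon lengths and overlaps come from GENCODE 29 by Ensembl identifier, matched for 43 of 43 members; 17 members share exon bases with another listed gene, 5 over at least 10% of their length. Promoters are RefSeq's (GRCh38.p14), another build than the counts.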

Additional observations from a re-analysis of the deposited data

How the results depend on the processing

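The 43 genes were tested under 18 alternatives, and no called fold change turned its direction. Of 774 values of single members, 692 kept their call or lack of it, 72 lost a call and 10 gained it. Relative log expression and upper-quartile scaling, no filter, a filter of 50 counts and limma-voom changed the call of 0 members, and DESeq2 lost 2 (11 higher, 10 lower). A test against a fold of 1.2 gave 1 higher and 3 lower members, 7 and 4 other pathway genes, and 903 and 1314 of all genes. An adjusted p under 0.01 gave 7 higher and 9 lower members, 24 and 8 other pathway genes, and 2103 and 2197 of all genes. The replicate block gave 14 higher and 13 lower members (42.8% of all genes were then called), adding MCM3, POLA1, PCNA and TK1 and losing 0. With single libraries or a replicate number left out, members called ranged from 1 to 13 higher and 6 to 12 lower, other pathway genes from 17 to 34 and 6 to 17, and all genes from 1414 to 3214 and 1562 to 3303. The members' median log2 fold change lay between 0.0028 (without Set7KD replicate 3) and 0.044 then. Leaving out replicate 1, 2 or 3 of both groups lost 16, 2 and 6 member calls. Without replicate 1, the libraries left in NTC and in Set7KD differed at a chi-square of 9.85 and 9.58 per degree of freedom. Other pairs within a group lay at 2.98 to 5.65. Each of the 3 settings left out the same number of libraries, and why the losses differed was not tested. On simulated counts 44% of genes changed by a fold of 1.3 were recovered, and smaller folds were not simulated. There 50 genes were changed at each fold, beside 6690 genes called in these data, so that share sets no limit for the 43 genes.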
